A study of Mus musculus with 8 samples.

Results

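Esm1, Cd34, Plvap, Apln and Aplnr are endothelial genes linked to capillary type, and they were followed here in liver cells of mice on 2 diets. They are 5 of the 31053 gene rows of the count matrix, and of 17384 rows with at least 1 unique molecular identifier (UMI). They were chosen from the measured diet contrast of these same libraries, in which Esm1 and Cd34 stood higher in sinusoidal cells of 1 mouse on the rich diet (HFHC 4) than in control mice, together with further genes of capillary type. Their levels between the diets are therefore given as a description, with no test.

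Liver stromal cells had been depleted of dead cells, stained for CD45, CD31, CD146 and PDPN, sorted to enrich endothelium and sequenced as single cells on the 10x Genomics platform. The 4 control and 4 HFHC mice (high fat, high cholesterol; the titles say calorie) were male C57BL/6 animals on a chow control or HFHC diet for 20 to 32 weeks, and the labels give their age as 6 to 8 weeks. Each library is 1 mouse, so the 4 libraries of a diet are 4 animals; the title of HFHC 4 numbers its animal 14. A barcode seen in several libraries was counted only where its UMI total was highest, and 3192 of 3416 cells were left by this step, from 47 to 875 cells and 170448 to 2309209 UMIs per library, with a median of 1364 (control 2) to 5928 (HFHC 1) UMIs per cell.

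Some libraries stood apart. From 33 to 65 barcodes were common to each pair among HFHC 1, HFHC 2, HFHC 3, control 1 and control 2, and at most 4 to any other pair. Those 5 are called the barcode-sharing libraries. Control 4, labelled male, had Xist UMIs in 67 of 94 cells and Y-linked UMIs in 0, while the other libraries had 0 cells with Xist. Leaving control 4 out is given in the closing section with the other libraries.

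Sinusoidal endothelial cells (LSECs) line the liver capillaries and are known for open pores, the fenestrae, without a diaphragm. Plvap encodes the protein that builds the diaphragms of fenestrae and caveolae in other capillaries. Cd34 encodes a sialomucin of capillary endothelium that is also found on fibroblasts and on blood progenitors. Its gain in sinusoids is a textbook sign of capillarization, the change of sinusoids towards continuous capillaries. Esm1 encodes endocan, a secreted proteoglycan of activated and sprouting endothelium. Apln encodes the peptide apelin, which sprouting tip cells secrete, and Aplnr its G protein-coupled receptor.

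Of the 5 genes, 3 had an entry in the RefSeq promoter table (GRCm38.p6, 250 bases before to 50 after the start). These 3 windows, of Esm1, Cd34 and Apln, are shown, and Plvap and Aplnr had no entry. Detection of Esm1 in the same cells as Cd34 or Apln is described further on. Capitals mark the matches to 6 short motifs searched on both strands, and each line runs 5′ to 3′ on the strand of the gene.
Esm1 (chr13:113209409-113209708, plus strand): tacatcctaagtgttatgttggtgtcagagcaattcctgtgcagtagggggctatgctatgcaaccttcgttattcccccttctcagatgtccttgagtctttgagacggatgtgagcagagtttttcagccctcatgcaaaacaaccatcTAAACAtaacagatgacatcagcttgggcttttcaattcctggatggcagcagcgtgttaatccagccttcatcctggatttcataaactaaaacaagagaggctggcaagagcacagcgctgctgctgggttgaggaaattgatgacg
Cd34 (chr1:194938571-194938870, plus strand): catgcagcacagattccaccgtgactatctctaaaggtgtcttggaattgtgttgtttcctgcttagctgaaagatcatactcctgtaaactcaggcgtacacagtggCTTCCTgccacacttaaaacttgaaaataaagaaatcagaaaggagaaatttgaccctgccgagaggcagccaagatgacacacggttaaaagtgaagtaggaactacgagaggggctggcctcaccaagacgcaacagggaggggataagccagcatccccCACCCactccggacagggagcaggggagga
Apln (chrX:48034804-48035103, minus strand): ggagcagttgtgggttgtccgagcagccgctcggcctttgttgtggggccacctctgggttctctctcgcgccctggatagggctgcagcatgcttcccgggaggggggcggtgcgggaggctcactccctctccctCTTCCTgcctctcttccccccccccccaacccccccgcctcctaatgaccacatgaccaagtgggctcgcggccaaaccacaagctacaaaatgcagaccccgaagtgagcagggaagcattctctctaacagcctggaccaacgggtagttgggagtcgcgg
The Esm1 window held 1 match to the FOX motif TGTTTA, at base 152. The Cd34 window held 1 match to the ETS motif AGGAAG, at base 109, and 1 to the KLF motif CACCC, at base 271. The Apln window held 1 match to the ETS motif, at base 138. Of the 32851 promoters in the table, 13.4% held the FOX letters, 35.4% the ETS letters and 57.5% the KLF letters. The letters ACGTG of the hypoxia response were in none of the 3 windows and in 19.6% of all promoters. The SOX letters ATTGTT were in none and in 10.7%, and the letters TATAAA of the core promoter box were in none and in 13.6%. GC content was 46.3% for Esm1, 50% for Cd34 and 64% for Apln, and no motif was in all 3 windows.

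In GENCODE vM21 for mm10 the gene bodies lie at chr13:113209659-113218098 (Esm1, plus strand), chr1:194938819-194961279 (Cd34, plus), chr8:71497765-71511752 (Plvap, minus), chrX:48025146-48034853 (Apln, minus) and chr2:85136225-85139923 (Aplnr, plus). Esm1 overlaps Gzmk, Cd34 overlaps the antisense RNA Gm16897 and Plvap overlaps Gtpbp3, each on the other strand, and whether strand was used in counting is not given in the sources used here. UMI counts came mostly from LSEC-gated cells for Esm1 (435 of 479 UMIs, 90.8%) and Plvap (371 of 570). Cd34 was spread more widely (128 of 333, 38.4%). Apln had 20 UMIs in 10 cells and Aplnr had 2 UMIs in 2 cells, among all 3192 cells.

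Cells were put in classes by markers that include no member. An endothelial-gated cell had UMIs of at least 2 of 8 pan-endothelial genes, and it was LSEC-gated, vascular-gated or lymphatic-gated where it had at least 2 of 8 markers of that class and more than of either other class. The gate gave 1209 LSEC-gated cells, of which 38 had exactly 2 LSEC markers, 60 vascular-gated and 32 lymphatic-gated cells. LSEC-gated cells numbered 31, 66, 526 and 38 in control 1 to 4 and 15, 0, 6 and 527 in HFHC 1 to 4. All 8 LSEC markers, Stab2 and Clec4g among them, had UMIs in LSEC-gated cells of each library with at least 10 of them. In control 1 and HFHC 1 these cells also carried markers of other types. Macrophage markers summed to 11570 CPM (UMIs of a gene per 1000000 UMIs of the summed cells) in HFHC 1 against 35.3 in HFHC 4, and mesenchymal markers to 8536 CPM in control 1 against 1.04 in HFHC 4. Of LSEC-gated cells, 11 of 31 in control 1, 0 of 15 in HFHC 1, 525 of 526 in control 3 and 525 of 527 in HFHC 4 had under 3 markers of every other class. Values in these cells, an alternative chosen after seeing the data, stand beside the main ones where they differ.

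Esm1 was high in the LSEC-gated cells of HFHC 4 and of HFHC 3, and low or at 0 in those of the other libraries that held such cells. In controls 1 to 4 it stood at 14.8, 5.71, 3.81 and 0 CPM, from 2, 1, 3 and 0 UMIs. In HFHC 1 it was at 0, in HFHC 3 at 450 (Poisson 95% interval 216 to 828, 10 UMIs) and in HFHC 4 at 435.5 CPM (395 to 479, 419 UMIs). HFHC 2 held no LSEC-gated cell. The controls averaged 6.09 ± 6.29 CPM (SD, n = 4), while the HFHC libraries split into 2 high and 1 at 0, so the diets overlapped. In cells with under 3 markers of other classes the controls stood at 0, 7.34, 3.84 and 0 CPM, HFHC 3 at 367 and HFHC 4 at 436. No LSEC-gated cell of HFHC 1 met that rule, and the values of HFHC 3 and HFHC 4 lay above every control. HFHC 3 had 5 UMIs in 1 cell there, and its interval (119 to 856) overlapped that of control 1 (0 to 182). All intervals and upper limits here cover counting error only.

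HFHC 4 and control 3 held nearly the same number of LSEC-gated cells and shared at most 4 barcodes. Esm1 was 114 times as high in HFHC 4 (exact conditional 95% interval 38.8 to 556), and at least 11.45-fold higher than in control 4, where a count of 0 allows 3 UMIs. HFHC 3 and control 2 belong to the other set of libraries, and there the ratio was 78.9 (11.2 to 3423). The 10 UMIs of HFHC 3 came from 2 of its 6 LSEC-gated cells, with 5 each, and with under 10 such cells HFHC 3 enters no fit of LSEC-gated cells. Of the 2 cells, 1 also had at least 3 hepatocyte markers, which leaves 5 Esm1 UMIs in 4 cells under the stricter rule.

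**Figure D1:**
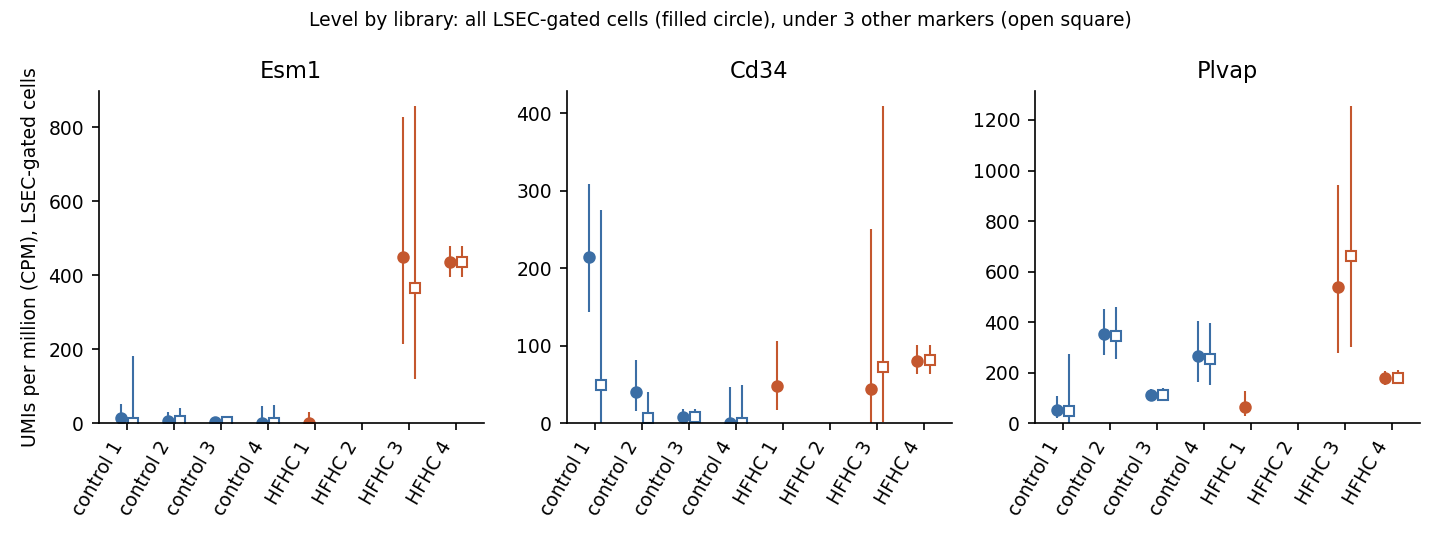
Level of Esm1, Cd34 and Plvap in LSEC-gated cells of each library, in CPM, with exact Poisson 95% intervals, for all LSEC-gated cells (filled circles) and for those with under 3 markers of each other class (open squares); controls are blue and HFHC libraries orange. Esm1 stands at 367 CPM or more in HFHC 3 and HFHC 4 alone, and the Cd34 value of control 1 falls from 215 to 49.3 CPM under the stricter rule.

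Outside LSEC-gated cells Esm1 was found in other endothelial-gated cells and in cells that met no gate. It had 0 UMIs in 1031 hepatocyte-gated cells of control 2 and HFHC 3 (median 1797 UMIs per cell, an upper limit of 1.52 CPM), and 0 in the cells gated as lymphatic, cholangiocyte, macrophage, lymphocyte, neutrophil, basophil or mesenchymal. HFHC 4 held only 1 cell of a non-endothelial class, so the share of Esm1 from free RNA cannot be read from such cells of that library. Vascular-gated cells of HFHC 4 stood at 107 CPM (39.3 to 233, 3 of 27 cells), a Poisson interval below that of its LSEC-gated cells. Such intervals do not cover the spread between cells, and the shares of cells with an Esm1 UMI had overlapping intervals. These shares were 11.1% (Clopper-Pearson 2.35 to 29.2) in vascular-gated and 24.3% (20.7 to 28.2) in LSEC-gated cells. With each cell thinned to 1000 UMIs they were 14.3% (3 of 21, 3.05 to 36.3) and 19.2% (15.5 to 23.4). Endothelial-gated cells without a class stood at 666 CPM (431 to 983, 5 of 24 cells), and 1 of these cells held 19 of the 25 UMIs. Cells that met no gate in HFHC 4 had 8 Esm1 UMIs in 6 of 37 cells, at 359 CPM and a median of 531 UMIs per cell. In control 3, 4 of the 7 Esm1 UMIs came from outside LSEC-gated cells, 2 from vascular-gated cells and 2 from endothelial-gated cells without a class.

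Within HFHC 4 the gene was uneven between LSEC-gated cells. Of 527 cells, 399 had 0 Esm1 UMIs, 47 had 1, 39 had 2, 26 had 3 to 5 and 16 had 6 or more, up to 24. The 10 highest cells held 37.0% of the 419 UMIs. The variance of UMIs per cell was 7.52 times the mean, and 3.64 times after each cell was thinned to 1000 UMIs. By contrast, the 3 Esm1 UMIs of control 3 came from 3 of 526 cells. After thinning, 79 of 411 cells of HFHC 4 (19.2%, Clopper-Pearson 95% interval 15.5 to 23.4) and 0 of 387 cells of control 3 (up to 0.949%) had an Esm1 UMI. Unthinned, the shares were 24.3% in HFHC 4 and 0.57% in control 3.

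**Figure D2:**
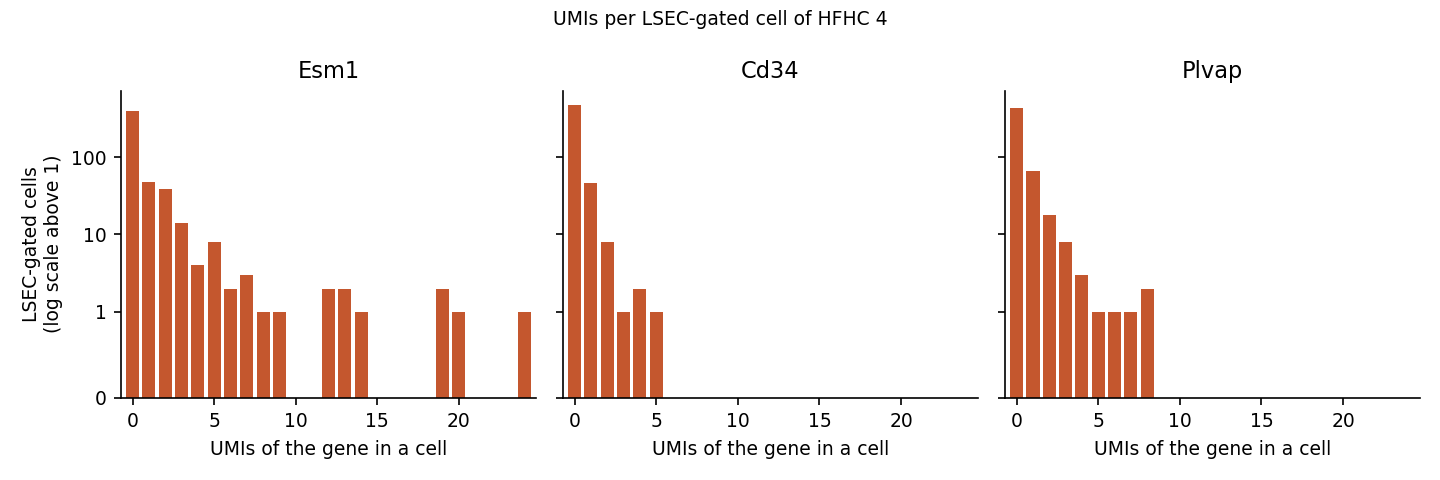
Number of LSEC-gated cells of HFHC 4 (vertical, log scale above 1) by the UMIs of Esm1, Cd34 or Plvap in the cell (horizontal). Esm1 reaches 24 UMIs in a cell, while Cd34 ends at 5 and Plvap at 8.

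LSEC-gated cells were given a zone by which of 2 marker lists, pericentral or periportal, had more genes with a UMI. In HFHC 4, Esm1 stood at 493 CPM (442 to 548) in 363 periportal-zone cells, 199.9 CPM (128 to 297) in 63 pericentral-zone cells and 360 CPM (271 to 469) in 101 cells without a zone. After thinning, 19.9% (60 of 301), 12.2% (6 of 49) and 21.3% (13 of 61) of these cells had an Esm1 UMI, and the Clopper-Pearson intervals of the 3 shares overlapped, while the Poisson intervals of the summed levels were apart between the periportal and the pericentral zone. Both Esm1-carrying LSEC-gated cells of HFHC 3 were of the periportal zone.

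The genes most like Esm1 across the 527 LSEC-gated cells of HFHC 4 were Ctgf (Pearson r = 0.308), Kcnj8 (0.286), Angpt2 (0.257), Gmfg (0.246) and Ivns1abp (0.243), among 4282 genes found in at least 5% of the cells. Values were log counts per 10000, the points share 1 library, and deeper cells have more of every gene. Ctgf encodes a secreted matrix-associated protein, Kcnj8 a subunit of an ATP-sensitive potassium channel and Angpt2 a ligand of the Tie2 receptor known from sprouting endothelium. Cd34 came in rank 14 (r = 0.202) and Plvap in rank 4195 (r = -0.083). Across libraries, Angpt2 stood at 44.7 CPM in LSEC-gated cells of HFHC 4, against 5.71 to 15.3 CPM in the 4 controls, 64.7 in HFHC 1 and 0 in HFHC 3. Kcnj8 stood at 116 CPM in HFHC 4 and 180 in HFHC 3, from 4 UMIs in 1 cell, at 40.5 in HFHC 1 and at 0 to 12.7 in the controls. Ctgf stood at 0, 108, 8.90 and 0 CPM in controls 1 to 4, and at 169.9 in HFHC 1, 360 in HFHC 3 (8 UMIs in 2 cells) and 97.7 in HFHC 4. It was thus highest in HFHC 3, and control 2 lay beside HFHC 4 with overlapping intervals.

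Cd34 depended on which cells a library held. In all cells summed it ran from 15.6 CPM in HFHC 3 to 199.5 in control 1, and the diets overlapped, with 70.7 ± 86.2 CPM in controls and 86.7 ± 55.5 in HFHC (SD, n = 4 each). Cells with at least 3 mesenchymal markers such as Col1a1 and Dcn held 32 of 34 Cd34 UMIs in control 1, 33 of 68 in control 2, 41 of 46 in HFHC 1 and 24 of 28 in HFHC 2. They held 0 in control 3, control 4 and HFHC 4. In HFHC 3, 24 of 36 UMIs came from 3 cells with at least 3 of the myeloid progenitor genes Mpo, Prtn3, Ctsg, Elane and Ms4a3, a list chosen after seeing the data. With those cells set aside, LSEC-gated cells held 78 of 99 UMIs in HFHC 4, 7 of 15 in control 3 and at most 2 in each other library.

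**Figure D3:**
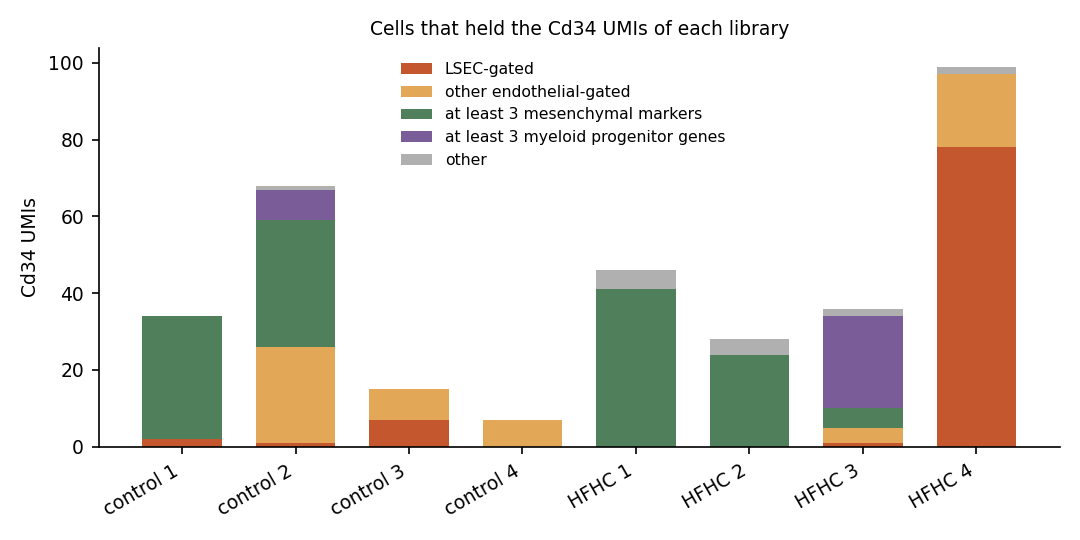
Cd34 UMIs of each library (vertical) by the kind of cell that held them, each cell counted once. Mesenchymal-marker cells hold 32 of 34 UMIs in control 1 and 41 of 46 in HFHC 1, and LSEC-gated cells hold 78 of 99 in HFHC 4.

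In LSEC-gated cells, Cd34 stood at 215, 39.9, 8.90 and 0 CPM in controls 1 to 4 (29, 7, 7 and 0 UMIs). It stood at 48.6 CPM in HFHC 1, 45.0 in HFHC 3 (1 UMI) and 81.1 in HFHC 4 (64.1 to 101, 78 UMIs in 58 cells). The value of control 1 lay above HFHC 4, and 27 of its 29 UMIs came from LSEC-gated cells with at least 3 mesenchymal markers. All 6 UMIs of HFHC 1 came from such cells too. In cells with under 3 markers of other classes, the controls stood at 49.3 (1 UMI), 7.34, 8.95 and 0 CPM and HFHC 4 at 81.4. HFHC 4 was 9.11 times as high as control 3 (4.22 to 23.4), and 11.1 times as high as control 2 under the stricter rule (1.93 to 443), against 2.03 times (0.94 to 5.22) under the main gate. The 2 ratios to control 2 differ by a single cell, which held 6 of its 7 UMIs and had at least 3 myeloid progenitor genes. The stricter rule left 1 UMI in control 2. After thinning, 23 of 411 cells of HFHC 4 (5.60%, 3.58 to 8.28) and 4 of 387 of control 3 (1.03%, 0.28 to 2.63) had a Cd34 UMI. The unthinned shares were 11.0% and 1.33%, against 3 of 538 hepatocyte-gated cells of HFHC 3 (0.558%). There 9 of the 11 UMIs lay in a single cell, 1 of those with at least 3 myeloid progenitor genes.

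Plvap was found in LSEC-gated cells of every library that held them. It stood at 51.9, 354, 112 and 266 CPM in controls 1 to 4 and at 64.7, 540 and 180 CPM in HFHC 1, HFHC 3 and HFHC 4. The order was HFHC 3, control 2, control 4, HFHC 4, control 3, HFHC 1 and control 1, and the intervals of HFHC 3 and control 2, of control 2 and control 4, of control 4 and HFHC 4, and of control 3, HFHC 1 and control 1 overlapped. HFHC 4 was 1.61 times control 3 (1.24 to 2.10) and 0.51 times control 2 (0.38 to 0.69), so its place depended on the control it was set beside. After thinning, the share of cells with a Plvap UMI was 25% in control 2 (14.7 to 37.9), 11.9% in control 3, 11.8% in control 4 and 13.4% in HFHC 4. Unthinned, it was 34.8%, 12.7%, 28.9% and 19.2%. Hepatocyte-gated cells of control 2 had a Plvap UMI in 2 of 493 cells (0.406%, median 1269 UMIs).

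At 1000 UMIs per cell, Plvap was found in a larger share of pericentral-zone than of periportal-zone cells in the 3 libraries with at least 10 thinned cells in both. The shares were 37.0% against 10.5% in control 2, 15.2% against 11.2% in control 3 and 28.6% against 11.6% in HFHC 4. At 2000 UMIs the order turned in control 2, with 35.3% (6 of 17) against 38.5% (5 of 13), and held in control 3 (20.6% against 14.8%) and HFHC 4 (32% against 21.1%). The summed levels gave 464 against 357 CPM in control 2, 126 against 101 in control 3 and 333 against 164 in HFHC 4. The Poisson intervals of the 2 zones were apart in HFHC 4 (238 to 454 against 135 to 197) and overlapped in both controls. Rspo3, a Wnt agonist secreted near the central vein and one of the genes of the pericentral list, was the second gene most like Plvap in HFHC 4 (r = 0.233), after the secreted glycoprotein gene Lrg1 (0.249). Jam2, Plac8 and Edn1 followed (0.224, 0.214 and 0.212).

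Apelin was near the limit of detection. Apln had 1, 3, 0 and 0 UMIs in controls 1 to 4, against 2, 0, 8 and 6 in HFHC 1 to 4, and both diets included libraries at 0. The counts allow up to 4.41 CPM in control 3 and 14.3 in control 4. Of the 10 cells with an Apln UMI, 9 were endothelial-gated and 5 had Esm1 as well. In HFHC 4 all 4 Apln cells had Esm1 UMIs (14, 5, 1 and 2), while 128 of all 527 LSEC-gated cells did. The HFHC 3 cell with most Apln, 7 UMIs, held 5 of Esm1. These cells had 2760 to 6226 UMIs, above the median of 1672 in LSEC-gated cells of HFHC 4, and after thinning 1 Apln cell lay among the 79 Esm1 cells of HFHC 4 and 2 among the other 332. Aplnr had 1 UMI in an LSEC-gated cell of HFHC 4 and 1 in a lymphatic-gated cell of control 4, so no comparison of the receptor was detectable at this depth.

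Esm1, Cd34 and Plvap were next set beside each other within the LSEC-gated cells of HFHC 4, the library with enough cells of each. Cells with Esm1 were deeper (median 2168 UMIs against 1516), so each cell was thinned once to 1000 UMIs at random. Plvap was then found in 4 of 79 cells with Esm1 (5.06%, Clopper-Pearson 1.40 to 12.5) and in 51 of 332 without (15.4%, 11.7 to 19.7). The difference kept its direction at 500 UMIs (3.64% against 7.86%), at 2000 UMIs (12.1% against 25.4%) and unthinned (15.6% against 20.3%), while the intervals overlapped in every setting. Cd34 went the other way, with 8 of 79 cells with Esm1 (10.1%, 4.47 to 19.0) against 15 of 332 without (4.52%, 2.55 to 7.34), and 20.3% against 8.02% unthinned. That order did not hold at 2000 UMIs, where 13.8% stood against 15.2%. Plvap was found in 5 of 23 cells with Cd34 (21.7%) and 50 of 388 without (12.9%), with overlapping intervals.

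**Figure D4:**
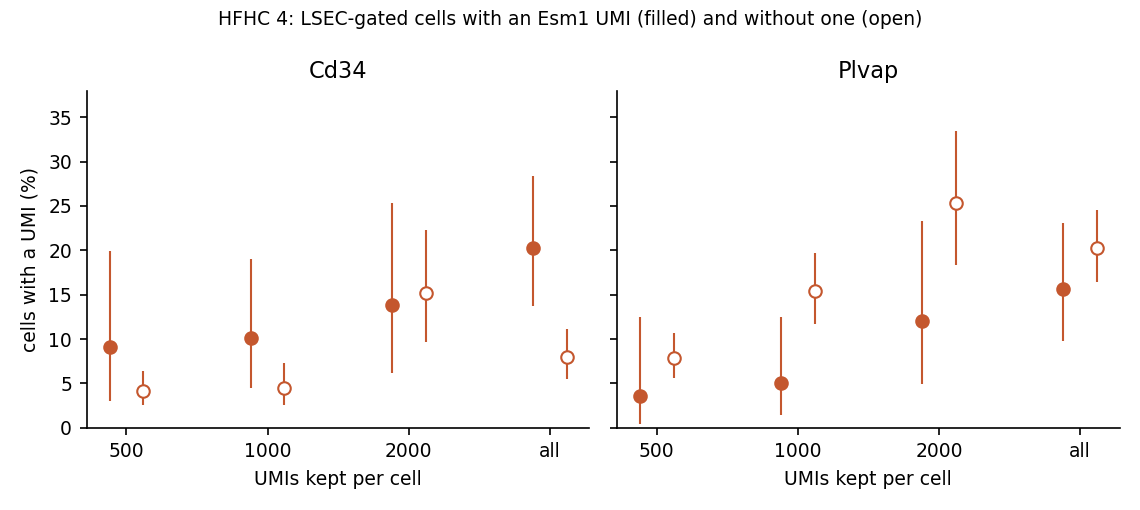
Share of LSEC-gated cells of HFHC 4 with a Cd34 or Plvap UMI (vertical, %) among cells with an Esm1 UMI (filled) and without one (open), with Clopper-Pearson 95% intervals, at 500, 1000 or 2000 UMIs kept per cell and unthinned. Plvap is lower in Esm1 cells at every depth, from 3.64% against 7.86% to 15.6% against 20.3%, with overlapping intervals, and Cd34 changes its order at 2000 UMIs.

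The comparison of vascular-gated with LSEC-gated cells uses gates that hold no member. In summed counts of control 2 (17 vascular-gated, 66 LSEC-gated cells) and HFHC 4 (27 and 527), edgeR's quasi-likelihood test with library as a block called 213 of 2139 genes (9.96%), of which 115 were higher (5.38%) and 98 lower (4.58%) in vascular-gated cells. Esm1, Cd34 and Plvap passed the filter on low counts, and Apln and Aplnr did not. Plvap rose in vascular-gated cells, with 517 against 354 CPM in control 2 and 678 against 180 in HFHC 4, a log2 difference of 1.23 (SE 0.31, edgeR adjusted p = 0.00164). Cd34 stood at 252 against 39.9 CPM in control 2 and 161 against 81.1 in HFHC 4, a log2 difference of 1.64 (SE 0.48). The interval of the class ratio included 1 for Plvap in control 2 (1.46, 0.95 to 2.23) and for Cd34 in HFHC 4 (1.98, 0.87 to 3.96). It lay above 1 for Plvap in HFHC 4 (3.77, 2.58 to 5.39) and for Cd34 in control 2 (6.30, 2.51 to 17.9). The summed level of Esm1 was lower in vascular-gated cells of HFHC 4, with 107 against 435.5 CPM, while control 2 had 0 and 1 UMI. The log2 difference was -2.12 (SE 0.61). In HFHC 4 the shares of cells with an Esm1 UMI had overlapping intervals between the classes, as given above. Esm1 and Cd34 were chosen for their level in sinusoidal cells of HFHC 4, which is 1 side of this comparison, so no p is given for them.

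Only 2 libraries, and 1 residual degree of freedom, stand behind this fit. DESeq2 called 51 genes, and Plvap was not among them (DESeq2 adjusted p = 0.303). Vascular-gated cells of control 2 carried mesenchymal markers at 4811 CPM, and those of HFHC 4 had 0 UMIs of all 8. In cells with under 3 markers of other classes, the log2 difference of Plvap was 1.52 (edgeR adjusted p = 0.00202) and that of Cd34 was 1.73. Libraries outside the fit had 1 to 7 vascular-gated cells and did not share 1 direction. In control 3, with 7 such cells, the ratio of the vascular-gated to the LSEC-gated level was 6.56 for Plvap (3.36 to 11.8), 19.0 for Cd34 (3.18 to 83.4) and 29.6 for Esm1 (2.47 to 258.5), the last from 2 against 3 UMIs and opposite to HFHC 4. In HFHC 3, with 4 such cells, the ratio was 2.17 for Plvap (0.93 to 5.14) and 7.44 for Cd34 (0.74 to 366.5), and Esm1 had 0 UMIs against 10. In control 4, with 3 such cells, it was 0.38 for Plvap (0.0092 to 2.36), from 1 against 21 UMIs, and Cd34 and Esm1 had 0 in both classes. The single vascular-gated cell of HFHC 1 had 0 Plvap UMIs against 8 in LSEC-gated cells, and 10 Cd34 UMIs, a ratio of 31.6 (10.4 to 105.9). That cell had 6 mesenchymal, 3 macrophage and 3 cholangiocyte markers beside 2 vascular markers, so its Cd34 cannot be assigned to vascular endothelium.

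**Figure D5:**
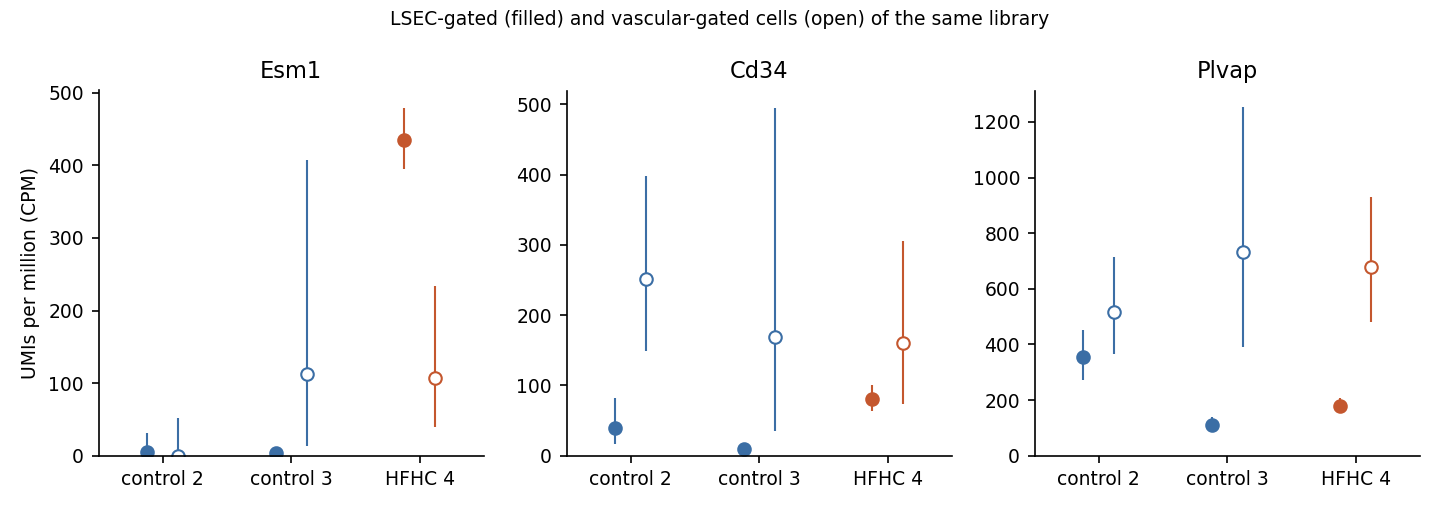
Level of Esm1, Cd34 and Plvap, in CPM, in LSEC-gated (filled) and vascular-gated (open) cells of control 2, control 3 and HFHC 4, with exact Poisson 95% intervals. The summed levels of Plvap and Cd34 are higher in vascular-gated cells in these 3 libraries. The ratio is least clear for Plvap in control 2 (1.46, 0.95 to 2.23) and for Cd34 in HFHC 4 (1.98, 0.87 to 3.96). The summed level of Esm1 is lower in vascular-gated cells in HFHC 4, at 107 against 435.5 CPM. It is higher in control 3, at 113 against 3.81 CPM.

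Genes of the caveola and the diaphragm stood with Plvap in this comparison. Of 8 tested, 5 rose and 0 fell in vascular-gated cells, beside the 5.38% of all genes called higher. Their median log2 difference was 1.83 against -0.01 over all genes. Ehd2 (4.89, SE 0.87), Cavin3 (4.00, SE 0.48), Ehd4 (2.87, SE 0.54) and Cav1 (2.46, SE 0.49), which build or stabilise caveolae, led the list. In cells with under 3 markers of other classes 4 of 7 rose, with a median of 1.06, and DESeq2 called 3 of 8. Of 10 genes of continuous capillaries 4 rose and 1 fell, beside 5.38% of all genes called higher and 4.58% called lower, with a median of 0.43. The risers were Ly6c1 (2.87, SE 0.47), Ly6a (1.68, SE 0.15), Tm4sf1 (1.17, SE 0.18) and Cav1, which is also in the caveola list. The median of this list did not keep its sign, at -0.04 with a minimum of 5 cells and -0.08 with no filter on low counts. DESeq2 called 3 of the 10 higher and 0 lower. Of the relatives and ligand genes of CD34, Podxl (0.66, SE 0.50) and Emcn (0.20, SE 0.37) were tested and neither was called. Both are also in the list of continuous capillaries.

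Of 8 tip cell genes tested, 0 rose and 1 fell, the VEGF co-receptor gene Nrp1 (-1.63, SE 0.38), beside the 4.58% of all genes called lower. All 8 had a lower fitted value in vascular-gated cells, with a median of -0.46. With a gate of 3 markers 2 of 7 were higher, and with no filter on low counts 5 of 18. DESeq2 called 0 of the 8. Of 6 genes around apelin signalling, 2 rose, the flow-responsive factors Klf2 (1.49, SE 0.25) and Klf4 (1.68, SE 0.47), beside 5.38% of all genes. The list median was 0.48, against -0.19 with no filter on low counts, and DESeq2 called 1 of the 6. Of 12 genes of sinusoidal identity, 9 fell and 0 rose, beside 4.58% of all genes called lower, with a median of -2.19, and DESeq2 called 4 of the 12. The gate itself uses LSEC markers, so a fall of genes found together with them is no independent result. Maf, a transcription factor of LSECs, fell from 1255 to 336 CPM in control 2 and from 1961 to 339 in HFHC 4, and Clec1b, a lectin gene, had 0 UMIs in vascular-gated cells against 199.7 and 446 CPM in LSEC-gated cells. Without a library block, 0 of the tip cell genes and 0 of the apelin signalling genes were called.

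Between the diets, edgeR called 0 of 6666 genes (0%) in all cells summed of the 8 libraries, with 52 at an unadjusted p under 0.05, and DESeq2 called 0, with 126. Cd34 and Plvap passed the filter on low counts and Esm1, Apln and Aplnr did not. Esm1 had 458 UMIs in HFHC 4, 11 in HFHC 3, 7 in control 3, 2 in control 1, 1 in control 2 and 0 in each other library. The fitted log2 difference, HFHC minus control, was 0.25 (SE 0.86) for Cd34 and -0.75 (SE 1.15) for Plvap. In all cells summed Plvap ran from 41.1 to 206 CPM in controls and from 0 (HFHC 2) to 223 (HFHC 4) in HFHC libraries. In bulk sums, fewer cells of a type and less RNA per cell cannot be told apart, and LSEC-gated cells made up most of control 1, control 3 and HFHC 4 alone.

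In LSEC-gated cells of libraries with at least 10 of them, controls 1 to 4 against HFHC 1 and HFHC 4, edgeR called 0 of 3135 genes (0%), with 48 at an unadjusted p under 0.05, and DESeq2 called 4, with 57. The same 3 members were left out by the filter. The log2 difference was 0.04 (SE 1.48) for Cd34 and -0.51 (SE 0.71) for Plvap. Cd34 moved to 3.25 in cells with under 3 markers of other classes, where HFHC 4 is the only HFHC library, and to -1.25 within the barcode-sharing libraries. Within control 3, control 4 and HFHC 4 alone it was 3.54 and Plvap 0.30, and within the barcode-sharing libraries Plvap was -1.49. Each set held 1 HFHC library in these fits, HFHC 4 or HFHC 1, and 0 of the 15 cells of HFHC 1 had under 3 markers of every other class. In control 1, 27 of the 29 Cd34 UMIs came from LSEC-gated cells with at least 3 mesenchymal markers. Each gene differed in direction between the 2 sets of libraries, which also differ in cell mix, and the part of the sets in the result was not tested.

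None of the gene lists held a called gene in either diet comparison. In LSEC-gated cells the median log2 difference was -0.07 for 10 tip cell genes, -0.25 for 13 genes of continuous capillaries, -0.34 for 6 caveola genes, -0.36 for 10 apelin signalling genes, -1.08 for the 2 relatives of CD34 and -0.67 for 15 genes of sinusoidal identity, against 0.01 over all genes. Trp53i11 (0.99, SE 0.37) in the tip cell list, Aqp1 (-1.15, SE 0.52), Cavin2 (-1.02, SE 0.46), Klf2 (-1.27, SE 0.38) and Plpp1 (-2.05, SE 0.53) had the smallest adjusted p of their lists, each at 0.999 with edgeR. In all cells summed the list medians ran from -1.53 to -0.40.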

How the data were processed

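Single-cell RNA libraries of 8 mice, 1 per mouse, were used. The authors deposited UMI counts per gene and cell, made with Cell Ranger 3.0.1 and Seurat on mm10, per the submitters' processing notes. Annotation and strand setting, not given in the sources used here, could move counts of overlapping genes. The members and gene lists were chosen with earlier results of these data known.

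Copies of a barcode were dropped in all libraries but that with its highest UMI total, and cells were gated by markers as the report states. Counts were summed per library and class of at least 10 cells. The robust quasi-likelihood test of edgeR 4.0.16 in R 4.3.3 was used after filterByExpr and TMM, with Benjamini-Hochberg adjustment at 0.05. The SE is the absolute log2 difference divided by the square root of F. Exact Poisson, Clopper-Pearson and conditional ratio intervals (95%) came from scipy 1.17.1 in Python 3.11.15. Upper limits in CPM are those of the exact Poisson interval. In the Esm1 comparison with control 4 a count of 0 was set at 3 counts. Doublets were not called; cells with under 3 markers of each other class were an alternative. The scripts were tested on simulated data.

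Named were the 5 members, up to 4 genes per list with the smallest adjusted p, and the 5 genes with the highest Pearson r to a member found in at least 20 cells. The progenitor genes and overlapping genes are named besides, and the genes most like Plvap in control 2 are not reported here. Alternatives were DESeq2 1.42.0, edgeR with DESeq2 size factors, all genes with a count, barcode copies kept, minima of 5 and 20 cells, a gate of 3 markers, at least 500 genes per cell, thinning to 500 or 2000 UMIs, blocks and leaving out each library. Sequence reads were not used here.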

Additional observations from a re-analysis of the deposited data

Results flagged for a closer look

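Among 4 libraries of a diet, the highest or lowest value was compared with the range by Dixon's 95% value for 4 samples in 12 groups of values, and chance passes about 1 in 20 groups. Esm1 and Cd34 were left out of this check in the HFHC libraries, since they were chosen for their level in HFHC 4. In all cells summed, Plvap in HFHC 4 stood far above the other HFHC libraries, at 223.4 CPM. In LSEC-gated cells Plvap stood at 180 CPM in HFHC 4, below HFHC 3 at 540 CPM (12 UMIs) and above HFHC 1 at 64.7 CPM. LSEC-gated cells numbered 527 in HFHC 4, against 15, 0 and 6 in HFHC 1 to 3. The part of cell mix in this flag was not tested. Also in all cells summed, Cd34 in control 1 stood far above the other controls, at 199.5 CPM. Cells with at least 3 mesenchymal markers held 32 of its 34 Cd34 UMIs. Aplnr was flagged in control 4, at 3.886 CPM, and in HFHC 4, at 0.9269 CPM, each from 1 UMI beside libraries at 0.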

How the results depend on the processing

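The comparison of all cells between diets called 1 gene in control 3, control 4 and HFHC 4 alone, and 0 whichever library was left out. LSEC-gated cells gave 4 called genes with DESeq2, 1 with no filter on low counts, 1 with a minimum of 20 cells, 5 with under 3 markers of other classes, 11 in control 3, control 4 and HFHC 4 alone, and 0 to 4 without a library (1 without control 2, 1 without HFHC 1, 4 without HFHC 4). The class comparison called 51 with DESeq2, 140 with under 3 markers of other classes and 49 with no library block. Its log2 difference for Plvap was no longer past the threshold with DESeq2 (1.23), no filter (0.96) and no block (1.17). The untested differences moved by more than their SE for Esm1 with a minimum of 5 cells (-1.50) and for Cd34 with a gate of 3 markers (0.92). The cause was not tested. Leaving out a library or a minimum of 20 cells left 1 library there, so those fits could not be made. In LSEC-gated cells of control 1 with under 3 other markers, Esm1 stood at 0 and Cd34 at 49.3 CPM, and Cd34 in control 2 at 7.34 (7.07 with hepatocyte markers allowed). Replicate numbers did not pair the libraries: same-numbered libraries had deviations correlated from -0.39 to 0.47 in 4 pairs, 3 of 8 libraries correlated best with their own number, and the replicate block called 0 genes. The list medians of continuous capillary and apelin signalling genes changed sign in the settings named with those lists. In 132 other settings of these results no direction turned, Plvap kept its call and no level or share left its interval.

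Sets of libraries and the rule of under 3 other markers were added after seeing the data. Depth limits Apln and Aplnr in every library, and Esm1 in the controls. LSEC-gated cells of HFHC mice come mainly from HFHC 4 (527 cells, against 15 in HFHC 1 and 6 in HFHC 3).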

Other observations

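Lymphatic-gated cells were found mainly in control 4, 31 of 32. Plvap stood there at 267 CPM (Poisson 95% interval 180 to 381, 30 UMIs in 8 of 31 cells), against 266 CPM in the LSEC-gated cells of that library, and 1 cell held 10 of the 30 UMIs. Cd34 had 6 UMIs in 1 of the 31 cells and Esm1 had 0.

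The genes most like Plvap in control 3, over 526 LSEC-gated cells, were Fabp4 (Pearson r = 0.212), Sfxn1 (0.203), AU021092 (0.173), Arl4d (0.172) and Tmem9 (0.163). None of the 5 closest genes of HFHC 4 was among them. Edn1, close to Plvap in HFHC 4, stood at 245 CPM in LSEC-gated cells of control 2, 228 in control 4, 495 in HFHC 3 and 83.2 in HFHC 4, and at 2.54 in control 3.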
